A study of Homo sapiens with 22 samples.

Results

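The nuclear-encoded subunits of the mitochondrial respiratory chain and ATP synthase were followed across parental, resistant and drug-tolerant PC9 cells. Members were taken from the deposited table by name: protein-coding genes whose current or older symbol starts with NDUFA, NDUFB, NDUFC, NDUFS or NDUFV (not NDUFAF), SDHA to SDHD, UQCR, CYC1, COX4 to COX8, or ATP5. The rule found 84 of the 17165 listed genes: 35 of complex I, 4 of complex II, 10 of complex III, 15 of complex IV (NDUFA4 and NDUFA4L2 among them) and 18 of complex V. The remaining 2, DMAC2 and DMAC2L, carry older ATP5 names and are not subunits of the enzyme. NDUFA4L2, at a mean of 0.171 CPM (reads of the gene, scaled to the library total), was the only member that did not pass the filter on low values, so 83 members were tested among 15485 genes. NDUFV2, NDUFA7, COX4I2, COX6A2, COX7A1 and COX8C were not analysed here.

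Complexes I and II pass electrons from NADH and succinate to coenzyme Q, complex III passes them on to cytochrome c, and complex IV gives them to oxygen. Complexes I, III and IV pump protons across the inner mitochondrial membrane, and complex V, the ATP synthase, lets the protons back to make ATP. Most subunits are nuclear genes, translated in the cytosol and imported, and the rest are made inside the mitochondrion from its own DNA. PC9 is an established lung adenocarcinoma line that depends on the signal of a mutated EGFR.

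The 22 RNA-seq libraries fall into 11 groups of 2. Parental PC9 cells received vehicle, gefitinib or WZ4002, both inhibitors of the EGFR kinase. PC9-GR2 and PC9-GR3, derivatives named here GR2 and GR3, received vehicle or WZ4002. Gefitinib-tolerant PC9 cells received vehicle or gefitinib, and WZ4002-tolerant PC9 cells received vehicle or WZ4002. Cells were treated for 24 h. The labels write the dose as 1 mM; that unit may be an error, since such inhibitors are commonly used at far lower concentrations. The labels do not say how GR2, GR3 or the tolerant cells were derived, whether any is 1 clone, or whether the 2 replicates of a group were grown separately. The p-values therefore reflect only how far these libraries spread, which may be technical. Unless said otherwise, 1 spread per gene was shared by all 11 groups. A group whose 2 libraries lie far apart therefore gets no larger standard error (SE). The median SD of members within a group ran from 0.0514 in GR2 vehicle to 0.241 in GR3 vehicle, on the log2(CPM + 1) scale. These are bulk libraries, in which fewer cells of a kind and less RNA per cell cannot be told apart.

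The libraries held 23.6 to 49.6 M reads, as judged from the step between low CPM values, and the listed genes took 54.6% (both GR3 vehicle libraries) to 64.2% of the CPM. Both ends of the range of reads are uncertain. The lowest, replicate 1 of parental cells on gefitinib, had the poorest fit, with 96.289% of values giving whole reads. For the highest, replicate 1 of GR2 vehicle, a slightly larger depth fitted equally well. Epithelial markers were present in all libraries (EPCAM at 106.92 to 409.22 CPM), PTPRC, CD3E, PECAM1 and COL3A1 were not listed, CD14 ranged from 0.1 to 7.22 CPM, CDH5 from 1.91 to 37.23, VWF from 0.14 to 2.86, COL1A1 from 5.27 to 18.38 and PDGFRB from 0.02 to 1.29. In 6 of the 11 groups at least 64 of the 83 members shifted the same way between the 2 libraries, and in the other 5 from 49 to 62 did. In GR3 vehicle, replicate 2 was lower than replicate 1 for 79 of 83 members, with a median of -0.34 on the log2(CPM + 1) scale, against 0.02 over all genes, -0.06 over the other genes in the shortest 20% and -0.26 over the mitochondrial ribosomal protein genes. In WZ4002-tolerant cells on WZ4002, replicate 2 was higher for 77 of 83 members, with a median of 0.26, against 0.01 over all genes, 0.11 over the other genes in the shortest 20% and 0.25 over the mitochondrial ribosomal protein genes. Replicate 2 was also the lower one for 74 members in GR3 on WZ4002, 73 and 72 in gefitinib-tolerant cells on vehicle and on gefitinib, and 64 in parental vehicle. Such shared shifts enter every contrast with these groups, and what they come from was not tested.

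The summed level of the members gives most weight to those with high CPM. In parental cells the mean sum of complex V was 2100 CPM on vehicle and 1517 on gefitinib. Complex I was at 1502 and 1337, complex II at 241 and 210, complex III at 779 and 602, and complex IV at 980 and 917. Over all members the sum was 5909 and 5365 CPM in parental vehicle libraries, 4567 and 4666 on gefitinib, and 4556 and 4330 on WZ4002. The vehicle libraries did not overlap with the treated ones. GR2 moved likewise, from 5389 and 5506 CPM on vehicle to 4540 and 4265 on WZ4002. GR3 did not separate, with 5914 and 4489 CPM on vehicle and 5619 and 5087 on WZ4002. The tolerant cells overlapped too: 5134 and 4626 CPM on vehicle and 4723 and 4237 on gefitinib in gefitinib-tolerant cells, and 4796 and 5018 on vehicle and 4614 and 5531 on WZ4002 in WZ4002-tolerant cells.

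**Figure D1:**
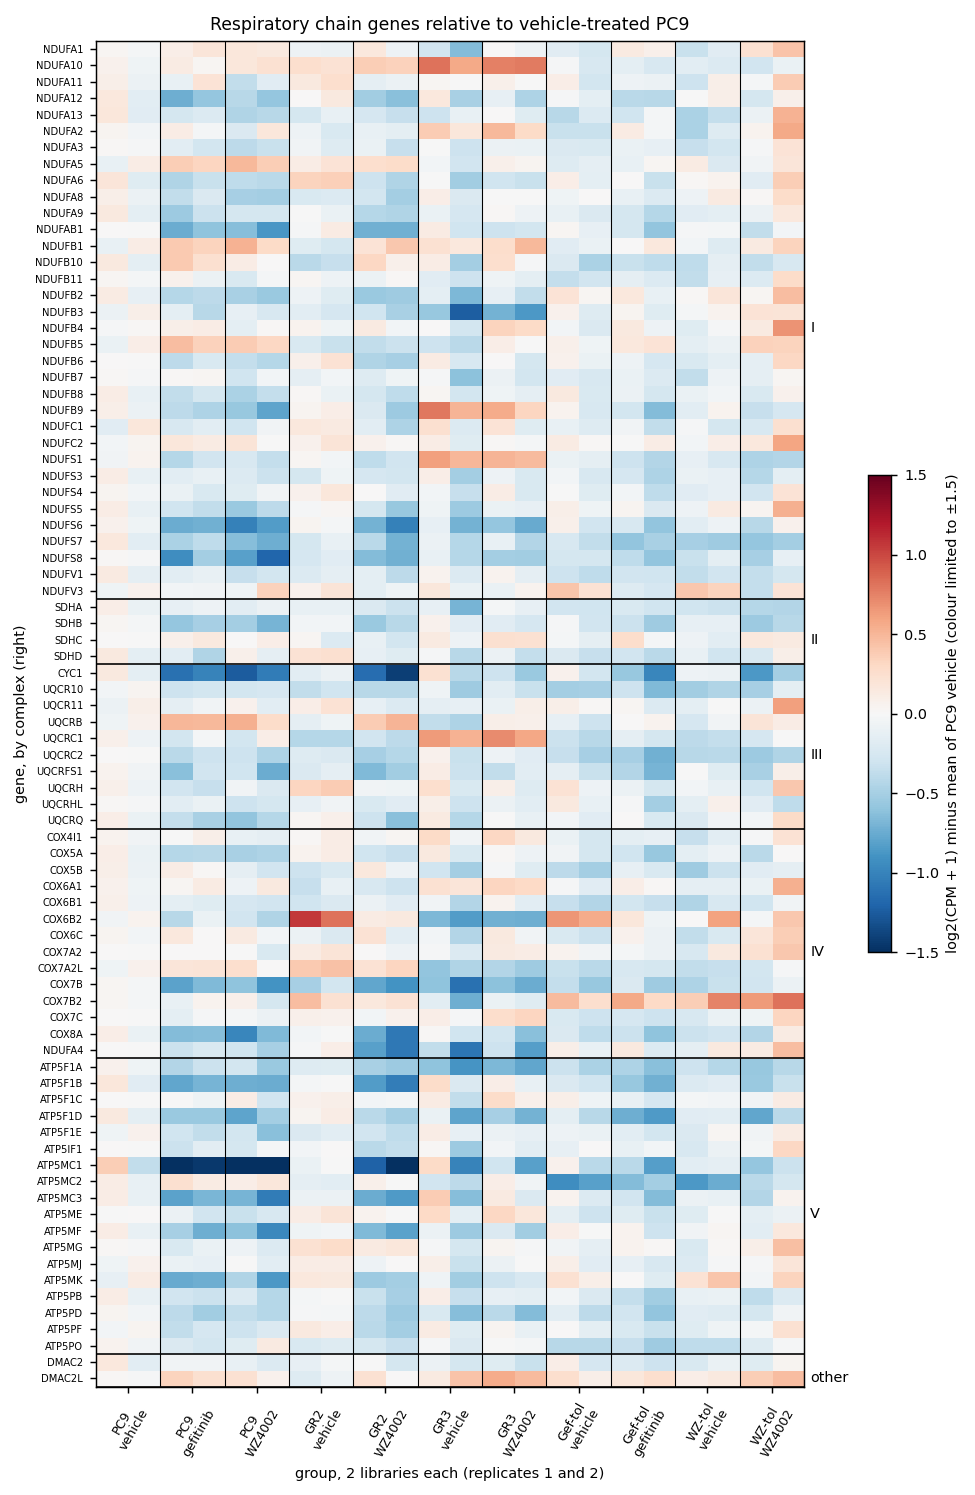
Each row is 1 of the 83 tested genes (1 of them is not shown), ordered by complex (label at the right), and each column 1 library, with replicates 1 and 2 side by side. Colour gives log2(CPM + 1) minus the mean of the 2 parental vehicle libraries, limited to ±1.5. ATP5MC1 and CYC1 are the darkest blue rows in treated parental and GR2 cells, UQCRB is red there, and replicate 2 of GR3 vehicle is bluer than replicate 1 through most rows.

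The first question was how the drugs changed these genes in parental cells. A gene is called higher or lower where limma's moderated test gave a Benjamini-Hochberg adjusted p under 0.05 over all 15485 genes. Gefitinib lowered 23 of the 83 members (27.7%) and raised 2 (2.41%), while over all genes 21.8% were lower and 23.5% higher. The members' median was -0.23 against 0.04 over all genes. The share of lower members was thus close to the background, and the share of higher members far below it. WZ4002 lowered 30 members (36.1%, background 22.3%) and raised 4 (4.82%, background 25.1%), with a median of -0.26 against 0.04. These 2 comparisons share the vehicle libraries. Between WZ4002 and gefitinib, limma called 0 members and 0 genes in all (background 0.0%), and the members' median difference was -0.06. Its unadjusted p was under 0.05 for 1 of 83 members and 525 of 15485 genes. The number of calls rested in part on 1 library: without replicate 1 of parental vehicle, which had the highest sum, it was 10 for gefitinib and 14 for WZ4002, in place of 25 and 34 (over all genes 45.3% and 47.5% were called). Leaving out replicate 1 or 2 of the gefitinib libraries gave 11 or 16 calls, and replicate 1 or 2 of the WZ4002 libraries 20 or 19. Fitted on only the libraries compared, WZ4002 gave 18 calls, all lower.

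In GR2 cells, which have libraries of their own, most of the same genes fell. WZ4002 lowered 27 of 83 members (32.5%, background 28.3%) and raised 4 (4.82%, background 27.4%), with a median of -0.19 against 0.01 over all genes. Of the 23 members lowered by gefitinib in parental cells, 20 were among the 27 lowered by WZ4002 in GR2, which is 87.0% of the first list and 74.1% of the second. For WZ4002 in parental cells the shared number was also 20, or 66.7% of 30. Among all genes called lower the shared part was 83.0% of the gefitinib list and 64.1% of the GR2 list, and 79.7% of the WZ4002 list and 62.9% of the GR2 list, so the members' overlap is not read as particular to them. In all, 19 members fell in both parental comparisons and in GR2: 8 of complex V, 6 of complex I, 3 of complex IV, CYC1 and SDHB. The share of all genes that fell in all 3 was not counted. The number 19 is therefore not read as particular to the members. The difference between the WZ4002 responses of GR2 and parental cells was called for 0 members by limma (background 3.34% higher and 3.45% lower). Its unadjusted p was under 0.05 for 3 of 83 members and 3406 of 15485 genes. Without replicate 1 or 2 of GR2 vehicle the 31 calls in GR2 (background 55.7% in either direction) became 18 or 17, and without replicate 2 of GR2 on WZ4002 18. In the deposited table both GR2 vehicle columns stand in the last of 3 runs of columns and the GR2 WZ4002 columns in the others; with a term for the runs, added after seeing the data, 17 members were called (1 higher, 16 lower). The WZ4002 columns of parental and of WZ4002-tolerant cells stand in runs 2 and 3, and their vehicle columns in runs 1 and 2. Drug and run cannot be fully told apart there either. Replicate 2 of WZ4002-tolerant cells on WZ4002 is in run 3. With the term for runs, WZ4002 gave 3 higher and 25 lower members in parental cells, and 7 higher and 3 lower in WZ4002-tolerant cells. What the runs stand for is not given in the sources used here.

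**Figure D2:**
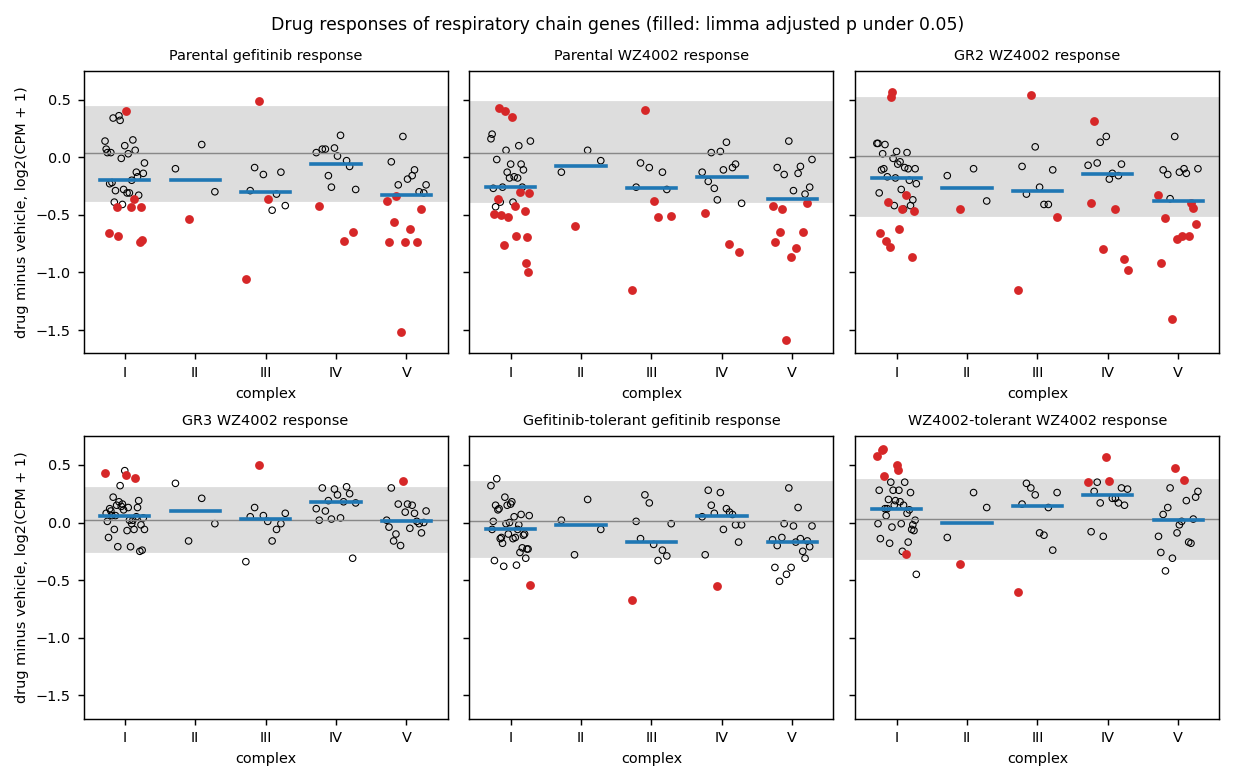
Each panel shows 1 drug response, as drug minus vehicle on the log2(CPM + 1) scale, for the subunit genes of complexes I to V. Filled points passed the test, blue bars are medians per complex, and the grey band and line are the quartiles and the median of all genes. Most points lie below the grey line in parental cells and GR2, and at or above it in GR3 and WZ4002-tolerant cells.

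Complex V held the largest share of lower genes. In parental cells 9 of its 18 members fell on gefitinib and 9 on WZ4002, 10 fell on WZ4002 in GR2, and none was called higher in these 3 comparisons. That is 50% on each drug in parental cells and 55.6% in GR2, beside 21.8%, 22.3% and 28.3% over all genes. Its median was -0.32, -0.36 and -0.38, in that order. ATP5F1B, the catalytic beta subunit of the head and the member with the highest CPM, stood at 626.25 and 497.14 CPM in parental vehicle libraries, 325.06 and 342.71 on gefitinib and 336.23 and 332.39 on WZ4002. The vehicle libraries were above all treated ones. The log2 difference was -0.74 (SE 0.16, adjusted p = 0.00141) for gefitinib and -0.74 (SE 0.16, adjusted p = 0.00135) for WZ4002. In GR2, ATP5F1B went from 545.92 and 557.22 CPM to 312.67 and 272.1, a log2 difference of -0.92 (SE 0.16, adjusted p = 0.000149). All 3 calls held when any 1 library of the comparison was left out. Others that fell in all 3 comparisons were ATP5F1A (the alpha subunit, -0.38, -0.42 and -0.33), ATP5F1D of the central stalk (-0.56, -0.65 and -0.53), ATP5PD of the peripheral stalk (-0.45, -0.40 and -0.44), and the small membrane subunits ATP5MF (-0.62, -0.79 and -0.68) and ATP5MK (-0.74, -0.65 and -0.68). Of these, the calls on ATP5MF and ATP5MK in GR2 held without any 1 library. ATP5IF1, the inhibitor of the enzyme when it runs backwards, passed the test in none of them.

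Within complex V, the 3 genes of the c subunit parted. ATP5MC1, ATP5MC2 and ATP5MC3 encode the same mature protein, which forms the proton-carrying ring in the membrane, and differ in the sequence that directs import. ATP5MC1 was at 42.87 and 25.12 CPM in parental vehicle libraries, 10.32 and 11.37 on gefitinib, and 10.29 and 10.14 on WZ4002. In GR2 it was at 30.66 and 32.74 CPM on vehicle and 13.66 and 9.49 on WZ4002. Vehicle and treated libraries did not overlap in either cell population, although the parental vehicle pair was wide. The log2 differences were -1.52 (SE 0.33, adjusted p = 0.00188), -1.59 (SE 0.33, adjusted p = 0.00124) and -1.40 (SE 0.33, adjusted p = 0.00226), and each call held without any 1 library. These were the largest falls among the members in each of the 3 comparisons. ATP5MC3 also fell, from 308.47 and 264.06 CPM in parental vehicle to 163.65 and 176.52 on gefitinib and 175.92 and 137.79 on WZ4002. Its log2 differences were -0.74, -0.87 and, in GR2, -0.71 (adjusted p = 0.0244, 0.0101 and 0.0254). The calls on ATP5MC3 were less firm: that in GR2 was lost without any of its 4 libraries, the gefitinib one without 3 of 4, and the parental WZ4002 one without replicate 1 of vehicle or replicate 2 of WZ4002. ATP5MC2 did not fall: it was at 98.79 and 85.15 CPM in parental vehicle, 108.73 and 99.7 on gefitinib and 98.66 and 103.43 on WZ4002. Its log2 differences of 0.18, 0.14 and, in GR2, 0.18 (adjusted p = 0.187, 0.311 and 0.169) did not pass the test.

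Per kilobase of merged exon, the makeup of c-subunit messages therefore differed between vehicle and drug. ATP5MC1 made 16.4% ± 3.61 (SD, n = 2) of the 3 genes' summed CPM per kilobase in parental vehicle, 7.51% ± 0.502 on gefitinib and 7.48% ± 0.382 on WZ4002. ATP5MC2 went from 29.6% ± 1.34 to 47.2% ± 2.83 and 48.5% ± 4.53. In GR2, ATP5MC1 went from 16.7% ± 0.707 to 8.42% ± 1.61 and ATP5MC2 from 28.7% ± 0.566 to 45.2% ± 1.06. In GR3 the ATP5MC2 share was 27.9% ± 9.55 on vehicle and 32.2% ± 2.55 on WZ4002, a difference smaller than the spread. In gefitinib-tolerant cells it was 19.6% ± 3.18 on vehicle and 28.6% ± 5.16 on gefitinib, and in WZ4002-tolerant cells 20.6% ± 0.99 and 28.4% ± 2.97 on WZ4002, with no overlap between the libraries in either. No test was run on the shares, and the lengths are those of all annotated exons merged, so the levels depend on which transcripts the cells use.

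**Figure D3:**
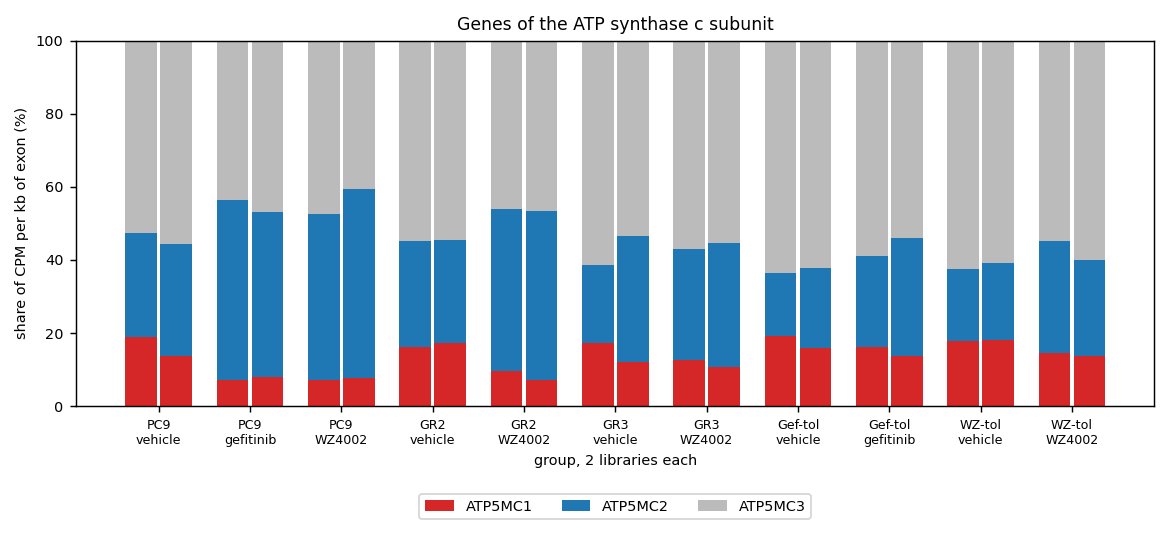
Each bar is 1 library and shows the share of ATP5MC1 (red), ATP5MC2 (blue) and ATP5MC3 (grey) in their summed CPM per kilobase of merged exon, in percent. The red share is 7.15 to 9.56% in treated parental and GR2 libraries and at least 10.6% in all others, and the blue share has its lowest group means in tolerant cells on vehicle.

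The bases before the start of ATP5MC1, the gene that fell the most, and of ATP5MC2, the copy that did not fall, are shown because these 2 genes of 1 protein moved apart. NDUFS8 and COX8A, which fell in the same 3 comparisons, stand beside them. Each run is the 250 bases before the first listed RefSeq start in GRCh38.p14, on the strand of the gene. Capitals mark matches to CCAAT, or to CCGGAAG (the core bound by ETS factors such as GABPA), on either strand.
ATP5MC1: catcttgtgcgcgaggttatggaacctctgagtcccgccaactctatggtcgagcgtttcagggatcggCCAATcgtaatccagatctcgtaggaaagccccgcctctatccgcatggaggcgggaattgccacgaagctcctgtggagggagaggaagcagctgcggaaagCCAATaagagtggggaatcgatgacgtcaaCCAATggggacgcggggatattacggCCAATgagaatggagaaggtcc
ATP5MC2: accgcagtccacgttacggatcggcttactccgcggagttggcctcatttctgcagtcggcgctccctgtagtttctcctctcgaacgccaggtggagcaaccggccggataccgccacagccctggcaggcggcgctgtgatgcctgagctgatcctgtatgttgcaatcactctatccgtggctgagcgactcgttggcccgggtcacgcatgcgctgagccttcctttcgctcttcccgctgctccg
NDUFS8: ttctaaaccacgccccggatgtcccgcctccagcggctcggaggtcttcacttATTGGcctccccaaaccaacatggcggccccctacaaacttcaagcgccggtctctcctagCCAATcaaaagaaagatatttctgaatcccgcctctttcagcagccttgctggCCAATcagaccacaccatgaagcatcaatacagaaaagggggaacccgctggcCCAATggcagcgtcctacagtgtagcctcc
COX8A: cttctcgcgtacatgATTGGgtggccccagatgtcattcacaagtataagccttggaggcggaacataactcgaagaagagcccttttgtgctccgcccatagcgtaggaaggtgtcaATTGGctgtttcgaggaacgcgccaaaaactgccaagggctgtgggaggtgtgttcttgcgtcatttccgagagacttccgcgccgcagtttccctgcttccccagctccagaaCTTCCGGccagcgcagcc
ATP5MC1 lies at chr17:48892537-48892786 (plus strand), ATP5MC2 at chr12:53676084-53676333 (minus strand), NDUFS8 at chr11:68030431-68030680 and COX8A at chr11:63974370-63974619 (both plus strand). ATP5MC1 held 4 CCAAT matches, NDUFS8 held 4 and COX8A 2, with 1 CCGGAAG match in COX8A. The ATP5MC2 window held none of these letters, which says nothing of the factors that bind there. At least 4 CCAAT matches were found in 3 of the 70 members with a window in the table (ATP5F1E, ATP5MC1 and NDUFS8) and in 183 of 15840 protein-coding genes (1.16%). The cutoff of 4 equals the number in the shown windows of ATP5MC1 and NDUFS8, so these shares cannot be compared as independent of them. At least 1 was found in 34.3% of the members and 34.5% of all. Among the 14 matched members that fell in all 3 comparisons it was 6 (42.9%), and among the other 56 it was 18 (32.1%); NDUFS8 and COX8A were shown from among those that hold it. CCGGAAG was found in 17 of the 70 members (24.3%) against 11.8% of all genes, and in 5 of the 14 matched members that fell in all 3 comparisons. The motif of NRF1, a regulator of many respiratory chain genes, was found in 14 of the 70 members against 7.65% of all, and in 1 of those 14 that fell. CACGTG, the E-box, was found in 7.14% of members and 7.84% of all. Both strands were searched for every motif, CCAAT and CCGGAAG cannot overlap each other, and a match is a description of the sequence only.

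In complex III, CYC1 fell and UQCRB rose. CYC1 is cytochrome c1, the heme protein that hands electrons to cytochrome c. It was at 228.78 and 186.47 CPM in parental vehicle libraries, 94.77 and 102.66 on gefitinib and 86.44 and 99.67 on WZ4002. In GR2 it went from 184.55 and 193.91 CPM to 93.29 and 77.17. All treated libraries lay far below the vehicle ones, with log2 differences of -1.06 (SE 0.20, adjusted p = 0.000745), -1.15 (SE 0.20, adjusted p = 0.000372) and -1.15 (SE 0.20, adjusted p = 0.000223). UQCRB, a small subunit near a coenzyme Q site, went the other way, from 59.8 and 65.35 CPM to 88.89 and 87.95 on gefitinib and 91.19 and 76.18 on WZ4002. In GR2 UQCRB was at 56.88 and 59.83 CPM on vehicle and 81.87 and 89.34 on WZ4002. Again no vehicle library reached a treated one, and the log2 differences were 0.49 (SE 0.11, adjusted p = 0.00261), 0.41 (SE 0.11, adjusted p = 0.00814) and 0.54 (SE 0.11, adjusted p = 0.000832). The UQCRB call for WZ4002 in parental cells was lost without replicate 1 of vehicle or of WZ4002, and the other 2 held without any 1 library. Of the core subunits, UQCRC2 fell in both parental comparisons (-0.36 and -0.38), each time with a call lost without either vehicle library or replicate 2 of the drug, and UQCRC1 in neither. UQCRQ, a small subunit, fell on WZ4002 in parental cells (-0.51, adjusted p = 0.0231) and in GR2 (-0.52, adjusted p = 0.0183). The Rieske iron-sulfur protein UQCRFS1 fell on WZ4002 in parental cells (-0.52, adjusted p = 0.0455), a call lost without replicate 2 of WZ4002 or either vehicle library.

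**Figure D4:**
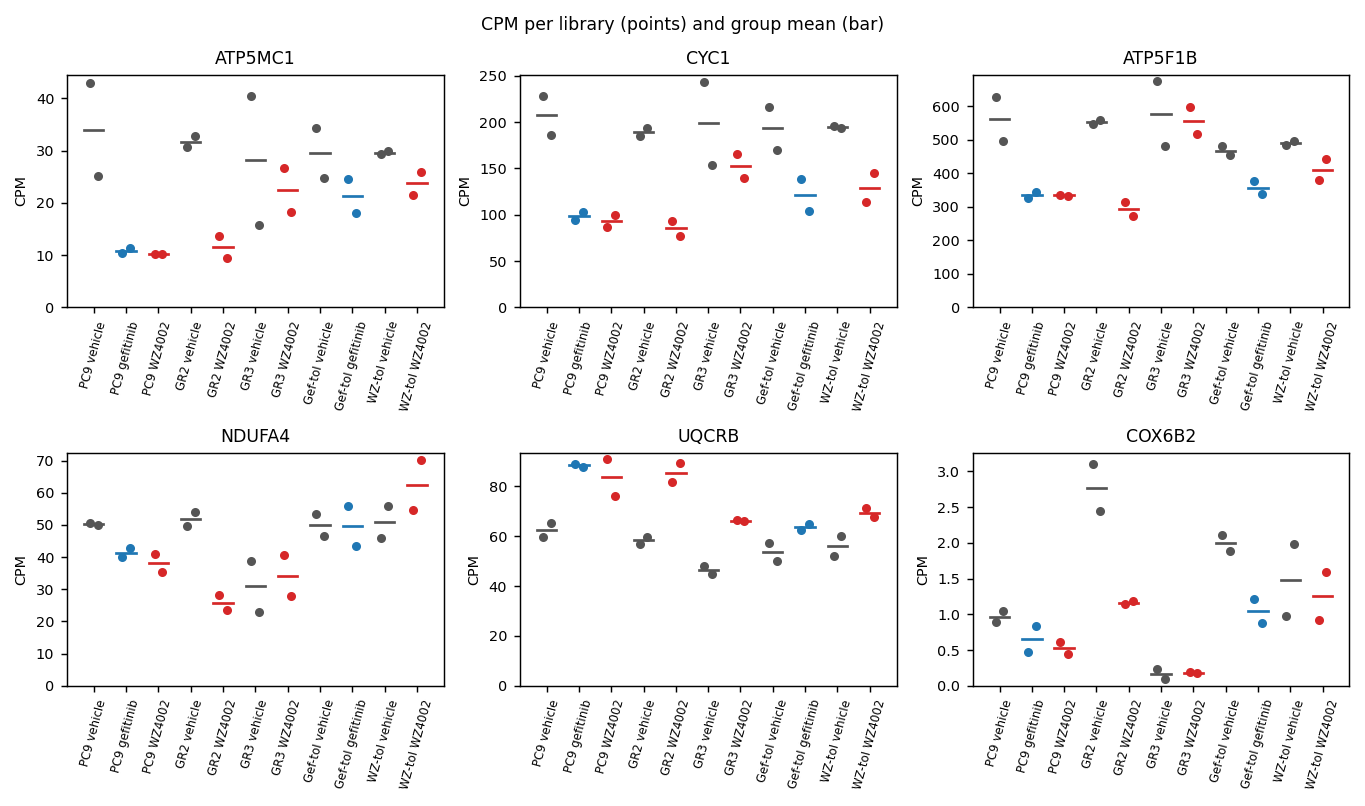
CPM of 6 genes in each library (points, replicate 1 at the left) and the mean of each group (bar), on axes that start at 0; grey is vehicle, blue gefitinib and red WZ4002. ATP5MC1, CYC1 and ATP5F1B are low in treated parental and GR2 cells, UQCRB is high there, NDUFA4 is lowest in GR3 on vehicle and GR2 on WZ4002, and COX6B2 is highest in GR2 on vehicle.

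Complex IV had few calls. On gefitinib 3 of its 14 tested members fell in parental cells and 3 fell on WZ4002 (21.4% each, background 21.8% and 22.3%), in GR2 5 fell (35.7%, background 28.3%), and its median of -0.06 and -0.17 was the nearest to 0 of any complex on gefitinib. COX8A, a small subunit of the membrane part, went from 84.16 and 73.26 CPM in parental vehicle to 49.46 and 50.17 on gefitinib and 39.37 and 49.09 on WZ4002, with no overlap (log2 differences -0.65 and -0.82, adjusted p = 0.0107 and 0.0022). In GR2 COX8A went from 76.24 and 77.9 CPM to 46.42 and 36.79 (-0.88, SE 0.19, adjusted p = 0.00091). COX7B, another small subunit, went from 72.02 and 69.03 CPM to 39.98 and 44.11 on gefitinib (-0.73, SE 0.17, adjusted p = 0.00232) and 46.19 and 37.45 on WZ4002 (-0.75, SE 0.17, adjusted p = 0.00191). The gefitinib call on COX8A was lost without replicate 1 of vehicle or of gefitinib, while both on COX7B held without any 1 library. In GR2 COX7B fell too (-0.45, adjusted p = 0.0305), a call lost without 3 of 4 libraries. NDUFA4, once counted with complex I, was lowered by WZ4002 in GR2, from 49.78 and 53.89 CPM to 28.25 and 23.47 (-0.98, SE 0.22, adjusted p = 0.00142). In parental cells NDUFA4 was at 50.57 and 50.13 CPM on vehicle and 40.87 and 35.32 on WZ4002, a log2 difference of -0.40 that did not pass (adjusted p = 0.148). COX6B2, at 3.11 and 2.44 CPM in GR2 on vehicle, fell to 1.14 and 1.18 on WZ4002 (-0.80, SE 0.20, adjusted p = 0.00284). COX5B rose in GR2 on WZ4002 (0.31, adjusted p = 0.0403), a call that was lost without either vehicle library or replicate 1 of WZ4002. COX4I1, COX6B1, COX6C and COX7C passed the test in none of the 3 comparisons.

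In parental cells 8 of 35 members fell and 1 rose on gefitinib, and 13 fell and 3 rose on WZ4002; in GR2 9 fell and 2 rose. The shares of complex I genes that fell, 22.9%, 37.1% and 25.7%, stood beside 21.8%, 22.3% and 28.3% over all genes, so that on gefitinib and in GR2 they were near the background. The shares that rose, 2.86%, 8.57% and 5.71%, were well under the 23.5%, 25.1% and 27.4% over all genes. NDUFS8, an iron-sulfur subunit on the path to coenzyme Q, was at 83.99 and 81.36 CPM in parental vehicle libraries, 42.94 and 57.84 on gefitinib and 46.59 and 35.55 on WZ4002. The vehicle libraries stood well above all treated ones. The log2 differences of NDUFS8 were -0.72 (SE 0.17, adjusted p = 0.00261) and -1.0 (SE 0.17, adjusted p = 0.000205), and in GR2 -0.47 (SE 0.17, adjusted p = 0.0241). The GR2 call on NDUFS8 was lost without any of its 4 libraries, and the gefitinib call without replicate 1 of gefitinib. NDUFS6, an accessory subunit with a zinc site, went from 89.86 and 82.48 CPM to 50.94 and 51.67 on gefitinib and 42.21 and 47.7 on WZ4002 (-0.74 and -0.92, adjusted p = 0.00684 and 0.00143). In GR2 NDUFS6 went from 88.32 and 84.62 CPM to 52.24 and 42.19 (-0.87, SE 0.20, adjusted p = 0.00162). NDUFAB1, the mitochondrial acyl carrier protein, which also serves fatty acid and lipoate synthesis, went from 51.18 and 50.4 CPM to 29.83 and 32.99 on gefitinib, 32.2 and 27.21 on WZ4002 and, in GR2, from 50.24 and 55.18 to 30.31 and 30.33. All 3 calls on NDUFAB1 held without any 1 library, with log2 differences of -0.68, -0.76 and -0.78 (SE 0.15 each, adjusted p = 0.00206, 0.000858 and 0.00046). NDUFB5, an accessory subunit of the membrane arm, rose in parental cells, from 54.89 and 63.06 CPM to 81.23 and 74.79 on gefitinib (0.40, SE 0.10, adjusted p = 0.00486) and 77.2 and 72.98 on WZ4002 (0.35, SE 0.10, adjusted p = 0.0111). Both NDUFB5 calls were lost without replicate 1 of vehicle or of the drug, although no vehicle library reached a treated one. In GR2 NDUFB5 was at 50.18 and 46.57 CPM on vehicle and 45.39 and 47.03 on WZ4002 (-0.06, adjusted p = 0.616). NDUFA6 (-0.73, adjusted p = 0.00408) and NDUFB6 (-0.62, adjusted p = 0.0039) fell in GR2 without passing in parental cells, and both calls held without any 1 library. NDUFB1, another accessory subunit, rose on WZ4002 in parental cells (0.40, adjusted p = 0.0328) and in GR2 (0.52, adjusted p = 0.00662), and NDUFB10 in GR2 (0.57, adjusted p = 0.0131). The parental call on NDUFB1 was lost without replicate 1 of vehicle or of WZ4002, and with only the libraries compared.

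In complex II, SDHB, the iron-sulfur subunit, was the only member called in these comparisons. That is 1 of 4 members lower in each. Over all genes 21.8% and 22.3% were lower in parental cells on gefitinib and on WZ4002, and 28.3% in GR2. The count is therefore near the background and is not read as particular to complex II. SDHB was at 48.83 and 46.58 CPM in parental vehicle, 31.56 and 33.5 on gefitinib and 33.18 and 29.06 on WZ4002. In GR2 it went from 46.25 and 46.45 CPM to 32.04 and 35.53. Vehicle and treated libraries were well apart, with log2 differences of -0.54 (adjusted p = 0.00263), -0.60 (adjusted p = 0.00112) and -0.45 (adjusted p = 0.00648, SE 0.12 each). The GR2 call was lost without replicate 1 of WZ4002, the parental ones held throughout. SDHA, SDHC and SDHD, the flavoprotein and the membrane anchors, passed in none of the 3.

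GR3 cells, which received the same WZ4002 treatment, did not show these falls. WZ4002 lowered 0 of the 83 members in limma's test (background 9.87%) and raised 5 (6.02%, background 12.1%). The unadjusted p was under 0.05 for 9 members and 5602 of 15485 genes. The members' median was 0.06 against 0.02 over all genes. ATP5MC1 was at 40.45 and 15.86 CPM on vehicle and 26.62 and 18.21 on WZ4002 (-0.20, SE 0.33, adjusted p = 0.715). CYC1 was at 243.15 and 154.12 CPM on vehicle and 166.15 and 140.22 on WZ4002 (-0.34, SE 0.20, adjusted p = 0.246), and ATP5F1B at 673.8 and 479.56 CPM and 595.7 and 516.21 (-0.04, SE 0.16, adjusted p = 0.898). For these 3 genes the WZ4002 libraries overlapped with a vehicle pair that was wide. The 95% interval of the CYC1 difference, -0.78 to 0.09, still reached falls of moderate size. UQCRB rose, as in parental cells and GR2, from 48.24 and 44.95 CPM to 66.53 and 66.05 (0.50, SE 0.11, adjusted p = 0.00595), and this was the only GR3 call that held without any 1 library. Among the others were NDUFB5 (47.1 and 44.27 to 63.15 and 58.59 CPM, 0.41, adjusted p = 0.0105), NDUFA1 (0.43) and ATP5MC2 (74.89 and 69.91 to 98.06 and 88.41 CPM, 0.36, adjusted p = 0.0272). The number of calls moved with the vehicle libraries: without replicate 1 it was 8, without replicate 2 it was 3, and without replicate 1 of WZ4002 it was 1. With only the libraries compared it was 0. Without replicate 1 of vehicle the median rose to 0.21, and without replicate 2 it fell to -0.12.

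Tested directly, the WZ4002 responses of GR3 and GR2 differed for 4 members, all higher in GR3 (4.82%, background 6.78% higher and 6.8% lower), and 75 of 83 differences were not below 0, with a median of 0.31 against 0.02 over all genes. NDUFA4 differed by 1.15 (SE 0.31, adjusted p = 0.023): in GR3 it was at 38.88 and 22.95 CPM on vehicle and 40.5 and 28.02 on WZ4002, while in GR2 the WZ4002 libraries fell below both vehicle ones, as given above. ATP5F1B differed by 0.88 (SE 0.22, adjusted p = 0.0154). ATP5PF of the peripheral stalk differed by 0.58 (adjusted p = 0.0481) and NDUFB5 by 0.47 (adjusted p = 0.0404). ATP5MC1 and CYC1 differed by 1.20 (SE 0.47, adjusted p = 0.105) and 0.81 (SE 0.29, adjusted p = 0.0771) and did not pass. The count rested on single libraries: it was 24 without replicate 1 of GR3 vehicle, 2 without replicate 1 of GR2 on WZ4002 or replicate 2 of GR3 on WZ4002, and 0 without any 1 of the other 5. It was 1 with only the libraries compared and 2 with a term for the runs of columns. Against parental cells, the members' median difference in the WZ4002 response of GR3 was 0.33. The unadjusted p was under 0.05 for 26 of 83 members and 2537 of 15485 genes. With adjusted p, limma called 0 members (background 0.633% higher and 0.659% lower). The count (background 1.29% in either direction) was 20 without replicate 1 of GR3 vehicle and 2 without replicate 1 of parental WZ4002.

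**Figure D5:**
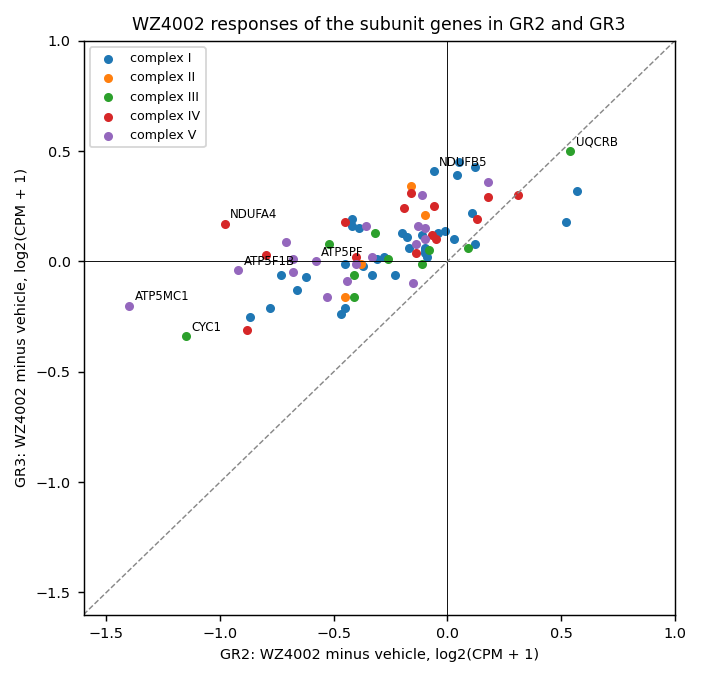
Each point is 1 of the 81 tested subunit genes, coloured by complex, with its WZ4002 response in GR2 on the x axis and in GR3 on the y axis, as log2(CPM + 1) differences. The dashed line marks equal responses. Nearly all points lie above it, UQCRB lies close to it, and ATP5MC1 and NDUFA4 are the farthest from it.

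In gefitinib-tolerant cells gefitinib lowered 3 of 83 members (3.61%, background 13.6%) and raised 0 (background 15.2%), with a median of -0.06. In limma's test the unadjusted p was under 0.05 for 15 members and 6381 of 15485 genes. CYC1 fell from 216.34 and 170.11 CPM to 139.02 and 104.48 (-0.67, SE 0.20, adjusted p = 0.0241). NDUFV3, a small subunit beside the NADH site, went from 19.47 and 16.81 CPM to 12.38 and 11.87 (-0.54, adjusted p = 0.0325). COX6B2, the testis form of a subunit of complex IV, went from 2.11 and 1.88 CPM to 1.21 and 0.88 (-0.55, adjusted p = 0.0459). Vehicle and gefitinib libraries did not overlap for any of the 3. The CYC1 call was lost without replicate 1 of vehicle or replicate 2 of gefitinib, and without either of them no member was called; NDUFV3 was lost without 3 of 4 libraries and COX6B2 without any. With the listed genes scaled to a common sum, 2 members were lower and 2 higher, with only the libraries compared 0 were called, and with a term for the runs of columns 9. ATP5MC1 was at 34.35 and 24.68 CPM on vehicle and 24.63 and 18.03 on gefitinib (-0.45, SE 0.33, adjusted p = 0.327). UQCRB was at 57.4 and 50.12 CPM on vehicle and 62.61 and 64.76 on gefitinib (0.24, adjusted p = 0.119). The members' median difference from the parental gefitinib response was 0.16, and limma's unadjusted p was under 0.05 for 2 members and 2407 of 15485 genes. The difference was called for 0 members (background 1.07% higher and 0.936% lower). It was called for 1 with only the libraries compared, and for 1 with the term for runs.

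In WZ4002-tolerant cells WZ4002 raised 11 members (13.3%, background 17.0%) and lowered 3 (3.61%, background 15.6%), with a median of 0.15 against 0.03. The 3 that fell, CYC1 (196.04 and 193.63 to 113.53 and 145.02 CPM, -0.60, adjusted p = 0.0355), NDUFS1 (-0.27, adjusted p = 0.0447) and SDHB (-0.36, adjusted p = 0.0392), also fell in parental cells and GR2. All of these calls in tolerant cells were lost without either vehicle library, and without replicate 1 of WZ4002. With only the libraries compared, 1 member was lower. Those that rose were 6 genes of complex I, 3 of complex IV and 2 of complex V. NDUFA1, a small membrane subunit, went from 47.91 and 53.66 CPM to 70.75 and 81.74 (0.58, SE 0.13, adjusted p = 0.00362). NDUFB5 went from 53.19 and 55.14 CPM to 75.15 and 74.25 (0.46, SE 0.10, adjusted p = 0.00392) and was the only one whose call held without any 1 library. ATP5MC2 went from 50.15 and 54.27 CPM to 69.16 and 76.05 (0.47, SE 0.11, adjusted p = 0.005), lost only without replicate 1 of vehicle. NDUFA2 (12.59 and 15.49 to 18.5 and 26.94 CPM, 0.64), NDUFA13 (5.78 and 6.33 to 7.83 and 12.47 CPM, 0.63) and COX6C (47.77 and 52.63 to 70.17 and 80.08 CPM, 0.57) had the other large values, the first 2 with a high replicate 2. Without replicate 2 of WZ4002, the library in which nearly all members were high, 5 members were called in place of 14 (background 32.6% in either direction) and the median was -0.01. Without replicate 1 of vehicle 1 member was called. With the listed genes scaled to a common sum, 13 members were higher and 1 lower, and with only the libraries compared 6 were called.

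The WZ4002 responses of WZ4002-tolerant and parental cells differed for 5 members, all higher in tolerant cells (6.02%, background 2.1% higher and 2.4% lower), with a median of 0.39 against -0.01 over all genes. They were NDUFA13 (1.06, SE 0.27, adjusted p = 0.0337), COX8A (0.97, SE 0.26, adjusted p = 0.0493), COX7B (0.96, SE 0.24, adjusted p = 0.0311), NDUFS8 (0.93, SE 0.23, adjusted p = 0.0341) and NDUFA3 (0.77, SE 0.19, adjusted p = 0.0295). In tolerant cells COX8A was at 62.54 and 64.14 CPM on vehicle and 57.68 and 85.3 on WZ4002, and NDUFS8 at 65.34 and 74.42 and 58.14 and 75.72, so both overlapped where parental cells had separated. The count (background 4.49% in either direction) was 14 without replicate 1 of tolerant cells on WZ4002. It was 0 without replicate 2 of that group, replicate 1 of tolerant vehicle or replicate 1 of parental vehicle, 1 without replicate 2 of parental vehicle or of parental WZ4002, and 2 without replicate 2 of tolerant vehicle. With only the libraries compared it was 0, and with a term for the runs of columns 11. ATP5MC1 differed by 1.28 (SE 0.47, adjusted p = 0.131) and did not pass. In tolerant cells it was at 29.29 and 29.95 CPM on vehicle and 21.58 and 25.97 on WZ4002.

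Vehicle-treated populations were compared next. GR2 was higher than parental cells for 2 members (2.41%, background 8.98%) and lower for 1 (1.2%, background 7.76%), with a median of -0.04. COX6B2 was at 0.89 and 1.04 CPM in parental vehicle libraries and 3.11 and 2.44 in GR2 (0.94, SE 0.20, adjusted p = 0.00456). COX7A2L, a relative of COX7A2 that joins complexes III and IV into supercomplexes, was at 97.6 and 106.2 CPM in parental cells and 133.79 and 138.36 in GR2 (0.41, SE 0.11, adjusted p = 0.0198), and UQCRC1 at 113.58 and 102.6 and 80.2 and 79.88 (-0.43, adjusted p = 0.0375). Groups did not overlap for any of the 3, but the count fell to 0 without replicate 1 of GR2 vehicle and to 1 without any other library. With the listed genes scaled to a common sum, 1 member was higher and 2 lower, and with only the libraries compared 7 were called. With the term for runs of columns 0 members were higher and 2 lower, so the calls on COX6B2 and COX7A2L were lost. Both GR2 vehicle columns stand in the last run and the parental vehicle columns in the others.

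GR3 had 13 members lower than parental cells (15.7%, background 11.1%) and 4 higher (4.82%, background 9.77%), with a median of -0.14 against 0.02. Of the 5 genes of complex IV that were lower, COX7B was at 46.05 and 31.97 CPM in GR3 (-0.86, SE 0.17, adjusted p = 0.00176), COX7A2L at 67.01 and 74.2 (-0.52, SE 0.11, adjusted p = 0.0037) and COX6B2 at 0.23 and 0.1 (-0.76, adjusted p = 0.0125). The COX7A2L and COX6B2 values are opposite in direction to those of GR2, against the same parental libraries. The GR2 calls on both genes were lost with the term for runs of columns. NDUFB3 was at 15.68 and 17.76 CPM in parental cells and 10.95 and 6.51 in GR3 (-0.90, SE 0.18, adjusted p = 0.00266), and ATP5F1A at 442.34 and 403.54 and 276.92 and 227.76 (-0.75, SE 0.13, adjusted p = 0.000701). In the other direction stood NDUFA10 (109.82 and 99.69 against 184.66 and 155.01 CPM, 0.69, SE 0.11, adjusted p = 0.000461), NDUFB9 (0.65, adjusted p = 0.00929), UQCRC1 (169.21 and 154.85 CPM in GR3, 0.58, adjusted p = 0.00561) and NDUFS1 (90.34 and 96.52 against 143.02 and 132.31 CPM, 0.55, SE 0.10, adjusted p = 0.000928). These calls included 6 that held without any 1 library: NDUFB3, COX7B, ATP5F1A, COX7A2L, NDUFS1 and NDUFA10. In GR3 on WZ4002, NDUFA10 was at 177.06 and 180.29 CPM, NDUFS1 at 132.93 and 130.38, and UQCRC1 at 176.91 and 161.7. The count of 17 (background 20.8% in either direction) was 28 without replicate 1 of GR3 vehicle, 8 without replicate 2 of it, and 8 and 11 without replicate 2 and 1 of parental vehicle. With the listed genes scaled to a common sum, which moved the median of all genes from 0.02 to 0.12 here, 5 members were lower and 4 higher. Fitted on only the libraries compared, 1 member was called, as lower.

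Both tolerant populations on vehicle were compared with the same parental vehicle libraries, so the results are given side by side. Gefitinib-tolerant cells had 7 members lower (8.43%, background 9.64%) and 1 higher (1.2%, background 9.39%). WZ4002-tolerant cells had 7 lower (8.43%, background 9.73%) and 0 higher in limma's test (background 8.72%). In the latter the unadjusted p was under 0.05, in either direction, for 16 of 83 members and 5053 of 15485 genes. ATP5MC2 was at 98.79 and 85.15 CPM in parental cells, 47.69 and 51.58 in gefitinib-tolerant and 50.15 and 54.27 in WZ4002-tolerant cells. No tolerant library came near a parental one, with log2 differences of -0.87 (SE 0.11, adjusted p = 7.67e-05) and -0.80 (SE 0.11, adjusted p = 0.000188). This was the only call in either comparison that held without any 1 library. The ATP5MC2 share of c-subunit messages per kilobase was 19.6% ± 3.18 (SD, n = 2) and 20.6% ± 0.99 in these cells. UQCRC2, UQCR10, COX5B, COX7A2L and ATP5PO were lower in both (from -0.36 to -0.50), ATP5F1A in gefitinib-tolerant cells (-0.40, adjusted p = 0.041), and NDUFS7, an iron-sulfur subunit, in WZ4002-tolerant cells (-0.52, adjusted p = 0.0368). COX6B2 was higher in gefitinib-tolerant cells, at 2.11 and 1.88 CPM (0.61, adjusted p = 0.041). Without replicate 1 or 2 of parental vehicle the counts were 1 or 3 in both comparisons. Without replicate 1 or 2 of the tolerant vehicle libraries they were 1 or 1 for gefitinib-tolerant and 1 or 2 for WZ4002-tolerant cells. With the listed genes scaled to a common sum, gefitinib-tolerant cells had 7 lower and 0 higher. With a pseudocount of 0.1 they also had 7 lower and 0 higher. The call on COX6B2, a gene of low CPM, was thus lost in both settings. For WZ4002-tolerant cells 3 members were called with only the libraries compared and 12 with a term for the runs of columns.

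Other genes of mitochondrial respiration were counted from lists. Over all genes the shares lower were 21.8%, 22.3% and 28.3% in parental cells on gefitinib and on WZ4002 and in GR2, and 9.87%, 13.6% and 15.6% in GR3, gefitinib-tolerant and WZ4002-tolerant cells. The shares higher were 23.5%, 25.1% and 27.4%, and then 12.1%, 15.2% and 17.0%. Of 75 mitochondrial ribosomal protein genes, 29 fell and 1 rose on gefitinib in parental cells, 32 fell and 3 rose on WZ4002, and 38 fell and 2 rose in GR2. In gefitinib-tolerant and WZ4002-tolerant cells on drug 28 and 20 of them fell and 0 and 2 rose, with medians of -0.36 and -0.26, where the respiratory chain medians were -0.06 and 0.15. In GR3 5 fell and 3 rose, with a median of -0.19. The 15 genes of mitochondrial DNA replication and transcription gave 10, 10 and 8 lower in parental cells on gefitinib, on WZ4002 and in GR2, and 4, 7 and 9 in GR3, gefitinib-tolerant and WZ4002-tolerant cells, with 2 higher in each parental comparison, 1 in GR2 and none in the others. Of the 10 tested regulators of mitochondrial biogenesis 5, 6 and 6 fell in the first 3 comparisons, and 3, 5 and 6 in the others; 1 rose, on WZ4002 in parental cells. Of the 18 enzymes of the TCA cycle 6, 7 and 6 fell, and 2, 4 and 4 in the others, with 0, 0 and 3 and then 1, 1 and 1 higher. Of the 15 assembly factors of complex I 4, 4 and 5 fell, and 1, 4 and 2 in the others, with 1 higher in each of the first 3 and none after; in the first 3 the lower counts lie near the shares over all genes. The 37 assembly factors of complexes II to V gave 12, 12 and 13, and then 6, 9 and 3, with 3, 2, 3, 1, 2 and 5 higher. The 13 genes of cytochrome c and coenzyme Q synthesis gave 5, 5 and 6, and then 1, 3 and 3, with 1, 3, 2, 1, 1 and 1 higher. The differences between these lists and the respiratory chain members were not tested.

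Reads could be shared with copies of the members. The table lists 39 pseudogenes named after a member, and UQCRHL, a near copy of UQCRH that was counted as a member, stood at a mean of 16.25 CPM beside 65.26 for UQCRH. How reads that fit several genes were counted is not given in the sources used here, so the levels of UQCRH and UQCRHL and of members with expressed copies are uncertain. The members were short genes, with a median of 2475 bases of merged exon against 4529 over all tested genes. Over the other genes in the shortest 20%, 20%, 22.1% and 28.7% were lower on gefitinib and on WZ4002 in parental cells and in GR2, and 17.8%, 17.7% and 21.0% higher. The part of length in the members' changes was not tested.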

How the data were processed

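RNA-seq of polyadenylated RNA was measured in 22 libraries. The authors deposited CPM per gene (read counts scaled to the library total); STAR, HTSeq and hg19 are named in the submitters' processing notes, with no role or order, versions are not given in the sources used here, nor is whether reads were counted by strand. From these CPM, log2(CPM + 1) was tested with limma 3.58.1 (R 4.3.3), trended variances and 11 group means, over the 15485 genes with at least 1 CPM in at least 2 libraries. P-values were adjusted by Benjamini-Hochberg within each of 16 comparisons. CPM are not counts, so no count test was used. Members, lists and named genes were chosen with earlier results of these data known. Named were, per comparison, the 4 largest rises and falls past the threshold (at 5 CPM or more in a group), the member of each complex with the lowest p, and isoform pairs; other members were named after their values were seen. In simulated data for the GR2 contrast, drawn for all 15485 genes around parental vehicle means, 200 genes were changed. Of those changed by 1 on the log2 scale 56% were recovered, and 7.6% of those changed by 0.5, with 3.3 false calls on average. In the data 8618 genes were called in GR2, so these rates do not describe that comparison. Where 1 library was left out, the lone sample of its group was assumed to vary like the other groups. Alternatives were another pseudocount, no filter, 2 scalings, the replicate block, only the libraries compared, each library left out, and a term for runs of columns, added after the data were seen. Sequences are from RefSeq (GRCh38.p14), matched by symbol for 70 members. The values of 1 member are not reported here.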

Additional observations from a re-analysis of the deposited data

Results flagged for a closer look

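For 9 members the response to WZ4002 differed between cell populations in a test of the difference itself (limma, an interaction contrast, adjusted p under 0.05). Between GR3 and GR2, in favour of GR3, these were NDUFA4 (1.15 on the log2 scale), ATP5F1B (0.88), ATP5PF (0.58) and NDUFB5 (0.47), which is 4.82% of the members where 6.78% of all genes were called higher. Between WZ4002-tolerant and parental cells, in favour of the tolerant cells, they were NDUFA13 (1.06), COX8A (0.97), COX7B (0.96), NDUFS8 (0.93) and NDUFA3 (0.77), or 6.02% against 2.1% of all genes. Each call held in 1 to 3 of the 8 fits that left out 1 library.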

How the results depend on the processing

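Counts of members called within 1.5 times of those reported were found for most settings; the exceptions follow, and their cause was not tested. With only the libraries compared, which leaves few degrees of freedom, WZ4002 gave 18 calls in parental cells, 0 in GR3 and 6 in WZ4002-tolerant cells, gefitinib 0 in gefitinib-tolerant cells, the vehicle comparisons with parental cells 7 (GR2), 1 (GR3) and 3 (WZ4002-tolerant), and the response differences 1 (GR3 and GR2), 1 (gefitinib-tolerant and parental) and 0 (WZ4002-tolerant and parental). With the listed genes scaled to a common sum the counts were 3 for GR3 on WZ4002, 9 for GR3 against parental vehicle and 2 for GR3 against GR2 responses. With a term for runs of columns, chosen after seeing the data, they were 17 in GR2, 9 in gefitinib-tolerant cells, 12 for WZ4002-tolerant against parental vehicle, and 2, 1 and 11 for the response differences of GR3 and GR2, gefitinib-tolerant and parental, and WZ4002-tolerant and parental. With no filter gefitinib-tolerant cells gave 5.

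Same-numbered deviations correlated at -0.46 to 0.63 between groups (median 0.05, over 0.1 in 20 of 55 pairs). A replicate number does not stand for the same run of columns in every group. These correlations therefore cannot decide whether the samples were paired. With the replicate block the GR3 and parental responses differed for 1 member in place of 0, and no named gene's call changed.

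Leaving out 1 library gave 10 to 23 calls for gefitinib and 14 to 28 for WZ4002 in parental cells, 17 to 22 in GR2, 1 to 8 in GR3, 0 to 4 in gefitinib-tolerant and 1 to 15 in WZ4002-tolerant cells, and 0 to 0 between the drugs. Against parental vehicle the ranges were 0 to 1 (GR2), 8 to 28 (GR3), 1 to 3 (gefitinib-tolerant) and 1 to 3 (WZ4002-tolerant). For differences of responses they were 0 to 24 (GR3 and GR2), 0 to 0 (GR2 and parental), 0 to 20 (GR3 and parental), 0 to 0 (gefitinib-tolerant and parental) and 0 to 14 (WZ4002-tolerant and parental). Differences that did not pass and changed sign ranged, in GR3 on WZ4002, from -0.28 to 0.21 (ATP5F1B), -0.85 to 0.45 (ATP5MC1) and -0.20 to 0.54 (NDUFA4), and in WZ4002-tolerant cells from -0.13 to 0.42 (COX8A) and -0.26 to 0.12 (NDUFS8). A planned test on recovered counts was not run, because not every library gave whole reads for nearly all genes. In replicate 1 of parental cells on gefitinib 96.289% of the CPM values gave whole reads. In every other library at least 99.412% did.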
